A study of Mus musculus with 130 samples.

Results

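Of 130 single 2-cell mouse embryos profiled by RNA sequencing, 80 had been cultured with SR1848, and 40 of these were compared with each other: the 20 with the highest and the 20 with the lowest level of 10 maternal transcripts. The level, called the maternal score here, was the mean log2(CPM + 1) of Gdf9, Bmp15, Zp1, Zp2, Zp3, Mos, Btg4, Oosp1, Nlrp5 and Zar1 in an embryo, where CPM is the share of the embryo's symbol-bearing counts, scaled to 1e6. The embryos were thus selected on their own RNA, and the score genes are given only as a description of that selection. All other genes were compared between the groups. Beside them stand the 40 SR1848 embryos of intermediate score and the 50 DMSO embryos, which the comparison of high with low did not use.

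All embryos were B6129F1. They were taken as zygotes at 5 hours post fertilization and held from hour 6 in KSOM medium with 10 µM SR1848 or with 0.1% DMSO, its solvent, in wet chambers without an oil overlay. Both groups of 20 therefore carry the same label: B6129F1, 10 µM SR1848 from 6 hours. SR1848 is a small molecule used against Nr5a2, an orphan nuclear receptor, in a series that asks what this receptor does in zygotic genome activation. Each library held the cDNA of 1 whole embryo, primed with oligo-dT by the Smart-seq2 method. The labels do not say which embryos shared a female or a culture drop, so p-values measure the spread between these embryos, which may be technical in part.

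An egg is loaded with messages made during oocyte growth, among them those for its zona pellucida coat, for secreted growth factors and for proteins that hold it in meiotic arrest. After fertilization these messages are degraded in waves while the embryo begins to transcribe its own genome. Many stored messages have short tails that are lengthened through U-rich elements near their ends, and Btg4 links the tail-removing CCR4-NOT complex to messages that are to be cleared. The level of a stored message in an oligo-dT library can move with its amount or with its tail, and CPM is a share of the library, so that fewer messages of a kind and more of all others cannot be told apart.

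The score ran from 7.35 to 7.82 in the high-score embryos (median 7.47) and from 5.84 to 6.77 in the low-score embryos (median 6.60). The cuts fell in a continuum: the embryos next to the lower cut scored 6.774 and 6.777, and those next to the upper cut 7.345 and 7.347. The DMSO embryos scored 5.64 to 7.11 (median 6.5), so that every high-score embryo lay above every DMSO embryo while the low-score embryos lay within the DMSO range. Total counts did not separate the groups, with 3138000 to 7180000 in the high-score and 3436000 to 7765000 in the low-score embryos (means 4656000 ± 1218000 and 4957000 ± 1249000, SD, n = 20 each, two-sided permutation test, adjusted p = 0.49 over 5 library properties). Genes detected at a common total (14870 ± 429 against 14720 ± 531, adjusted p = 0.49), the mitochondrially encoded share of counts (4.91% ± 2.25 against 4.09% ± 1.92, adjusted p = 0.49) and the embryo's number in the labels (adjusted p = 0.49) did not pass the same test either. For the number this test compared means only (45.5 and 50.45), which does not show how the numbers are spread. Numbers up to 64 were carried by 17 of 20 high-score but 10 of 20 low-score embryos. The 100 most abundant genes took 37.1% ± 3.65 of counts in the high-score and 31.2% ± 4.26 in the low-score embryos (adjusted p = 0.0003).

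Of the score genes, the growth factor Bmp15 and Btg4 had the largest differences of mean log2 level (2.24 and 1.88), followed by Mos, Oosp1 (1.44), Zp2 (1.09) and Gdf9 (0.76). Bmp15 (chrX:6314107-6320721, GRCm38), which the oocyte secretes to the follicle, ran from 389.5 to 2581 CPM in the high-score embryos (median 1121) and from 93.2 to 649 CPM in the low-score embryos (median 254). Btg4 (chr9:51060901-51119875) ran from 930 to 5128 CPM (median 2503) against 168 to 2346 CPM (median 519). The groups overlapped for both genes, and the DMSO medians, 375 and 548 CPM, were near those of the low-score embryos. The meiotic kinase Mos, low throughout, had medians of 4.98 and 1.33 CPM, the secreted oocyte protein Oosp1 of 492 and 177, and the growth factor Gdf9 of 337 and 207. The zona genes did not go together: Zp2 had medians of 236 and 120 CPM, Zp1 of 87.1 and 75.7, and Zp3 of 65.7 and 67.2, so that Zp3 was about level. Nlrp5, of the egg's subcortical complex, had 501 and 334 CPM, and the egg factor Zar1 21.2 and 16.8. Over the 80 SR1848 embryos, which these genes share with the score, the correlation of each gene with the mean of the other members ran from 0.70 for Gdf9 to -0.22 for Zp3, and Zar1 stood at -0.10.

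**Figure D1:**
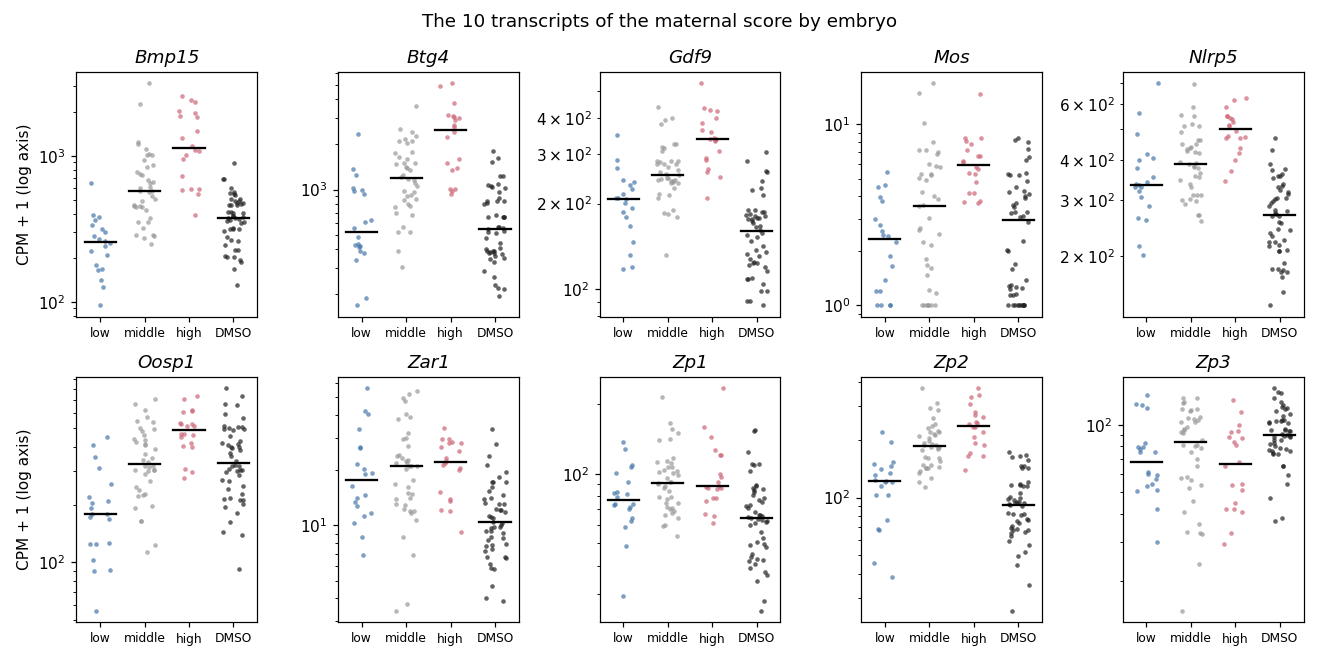
Level (CPM + 1, log axis) of the 10 score transcripts in the low-score (n = 20), middle (n = 40) and high-score (n = 20) SR1848 embryos and in the DMSO embryos (n = 50); points are embryos and bars are medians. Bmp15 and Btg4 spread widest between the groups, and Zp1, Zp3 and Zar1 hardly at all.

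With the score genes set aside, 11656 genes were tested. Of these, 2098 were higher (18%) and 2456 lower (21.1%) in the high-score embryos at an adjusted p under 0.05 (edgeR quasi-likelihood test, two-sided, Benjamini-Hochberg adjustment over all genes tested). The difference was at least 2-fold for 1152 of the higher and 1471 of the lower genes, and the median over all genes tested was -0.15 on the log2 scale. A p-value here says how closely a gene goes with the score among embryos of 1 treatment, and is no test of SR1848. Without the embryos numbered above 64, which left 17 high-score and 10 low-score embryos, 1241 of 12208 genes tested were higher and 1142 lower, of which 1202 and 1099 were among the calls above. List counts given below without the embryos numbered above 64 are to be read beside these totals.

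All 6 lists of maternal genes outside the score held a larger share of higher genes than all genes tested. The share was largest for the egg surface (53.8%), the subcortical complex (69.2%) and the oocyte transcription factors (45.5%). Message storage and decay (24.3% higher, 16.2% lower), meiosis (26.3% and 5.26%) and chromatin factors (25.9% and 22.2%) were nearer to the 18% and 21.1% of all genes. Among 13 tested genes of the egg surface and secretion, 7 were higher and 0 lower (median log2 difference 0.68). The secreted oocyte proteins led: Oosp3 ran from 60.9 to 462 CPM in the high-score embryos (median 153) and from 8.79 to 77.2 CPM in the low-score embryos (median 29.8), with 19 of 20 high-score embryos above every low-score embryo (4.66-fold, adjusted p = 3.6e-09). Oosp2 was 3.59-fold higher (adjusted p = 4.8e-07), and Omt2b, the most abundant of the list at a median of 6268 against 2450 CPM, was 1.94-fold higher (adjusted p = 6.4e-05).

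The subcortical maternal complex and its Nlrp relatives, proteins held under the egg's membrane, had 9 of 13 genes higher and 2 lower (median 0.88). Nlrp9c (chr7:26322473-26403700) ran from 376.5 to 1090 CPM against 56.4 to 327 CPM (medians 521 and 191), and the groups did not overlap (3.06-fold, adjusted p = 1.3e-09). Nlrp4f had medians of 1163 and 352 CPM (3.31-fold, adjusted p = 2.7e-07) and Nlrp4e, outside the list, of 72.8 and 19.2 (4.79-fold, adjusted p = 4.7e-08). Ooep, a core member of the complex, was 1.44 log2 units higher. The 2 lower genes were Khdc3, also a core member (-1.53), and Zbed3, the most abundant, at a median of 8807 against 16750 CPM (1.55-fold lower, adjusted p = 0.006); Zbed3 was not called under 5 other settings, and Khdc3 not without the embryos numbered above 64. Nlrp genes are close copies of each other, so reads may be divided among them with error.

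Oocyte transcription factors had 5 of 11 genes higher and 2 lower (median 1.04). The homeobox genes Obox1 (medians 159 and 34.9 CPM, 3.98-fold, adjusted p = 5.2e-09) and Obox5 (761 and 228 CPM, 3.48-fold, adjusted p = 2.2e-08) were higher in the high-score embryos; they too are near copies. The lower members were Taf4b (-1.92) and Nr6a1 (-0.31), the latter called only under some settings. Genes that store, read or clear messages had 9 of 37 higher and 6 lower, with a median of -0.01 whose sign changed with the scaling. Without the embryos numbered above 64 these were 4 higher and 1 lower, and with the trend on GC content removed 6 higher and 9 lower. Among them the egg's own cap-binding protein Eif4e1b had medians of 67 and 19.9 CPM (2.83-fold, adjusted p = 6.8e-06), and the deadenylase Cnot6l of 172 and 92.7 (1.79-fold, adjusted p = 5.1e-05).

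Genes of meiosis and egg arrest had 5 of 19 higher and 1 lower (median 0.08), and 2 higher without the embryos numbered above 64. Wee2 (chr6:40439088-40466813), a meiotic kinase of the oocyte, ran from 1559 to 4309 CPM in the high-score embryos (median 3009) and from 338 to 3030 CPM in the low-score embryos (median 944). Here 10 of 20 high-score embryos lay above every low-score embryo, and all 20 lay above every DMSO embryo (3.14-fold, adjusted p = 8.7e-09). The lower gene was Cdc20, an activator of the anaphase-promoting complex, with medians of 192 and 570 CPM (3.03-fold lower, adjusted p = 1.2e-07). Maternal chromatin factors had 7 of 27 higher and 6 lower (median -0.15, that of all genes). Npm2, which decondenses sperm chromatin, had medians of 255 and 65.3 CPM (3.31-fold higher, adjusted p = 1.1e-08), and Dnmt3l, the DNA methylation cofactor of the oocyte, of 255 and 80.7 (2.65-fold higher, adjusted p = 2.8e-08). The demethylase gene Kdm5b went the other way (-3.07).

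Of the genes tested, 7 (0.0601%) were higher without any overlap of the groups and 1 (0.00858%) was lower. Besides Nlrp9c the 7 were Immp1l, Nsun4, Anapc10, Bccip, Vdac2 and the predicted gene Gm49591, among them no classical egg marker. Immp1l, a mitochondrial inner membrane peptidase subunit, ran from 194 to 655 CPM against 16.1 to 167 CPM (4.53-fold, adjusted p = 4.3e-10). Nsun4, a mitochondrial RNA methyltransferase, ran from 473 to 972.5 CPM against 97.9 to 445 CPM (2.83-fold, adjusted p = 1.6e-09). All 20 high-score embryos also lay above every DMSO embryo for Nsun4, whereas for Anapc10, a subunit of the anaphase-promoting complex, the DMSO median of 71 CPM was above both the high-score (26.6) and the low-score median (9.20). The lower gene was Hspa2, a chaperone of the Hsp70 family, at 18.4 to 261 CPM against 278 to 1198 CPM (4.41-fold lower, adjusted p = 6.7e-09), with a DMSO median of 34.5 CPM.

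By size, the largest rises among named genes with a mean of at least 20 CPM were Serpinb3a (8.35-fold), Psenen (7.16-fold), Ifitm6 (6.12-fold), Apoo (5.32-fold), Olfr976 (5.23-fold), Rnf5 (5.04-fold), Pramel23 (4.99-fold), Nlrp4e, Sytl4 (4.78-fold) and Lef1 (4.76-fold). Serpinb3a, a serpin, ran from 8.22 to 108 CPM against 0 to 22.9 CPM, and 18 of 20 high-score embryos lay above every low-score embryo. Psenen encodes a subunit of gamma-secretase and Lef1 a transcription factor of Wnt signalling. The largest falls were Exosc6 (14.4-fold), Abtb2 (11.4-fold), Fzd9 (11.4-fold), Smarca5-ps (10.6-fold), Jun (9.70-fold), Riox1 (9.29-fold), Zfp622 (9.19-fold), Dusp1 (9.10-fold), Zfp428 (9.0-fold) and Sft2d3 (8.87-fold). Exosc6, a subunit of the RNA exosome, had a median of 0 CPM in the high-score embryos and in the DMSO embryos and of 54.8 CPM in the low-score embryos. Smarca5-ps is a pseudogene whose parent Smarca5, a chromatin remodeller, fell as well (3.31-fold, adjusted p = 3.2e-07), and reads of the pair are hard to tell apart.

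**Figure D2:**
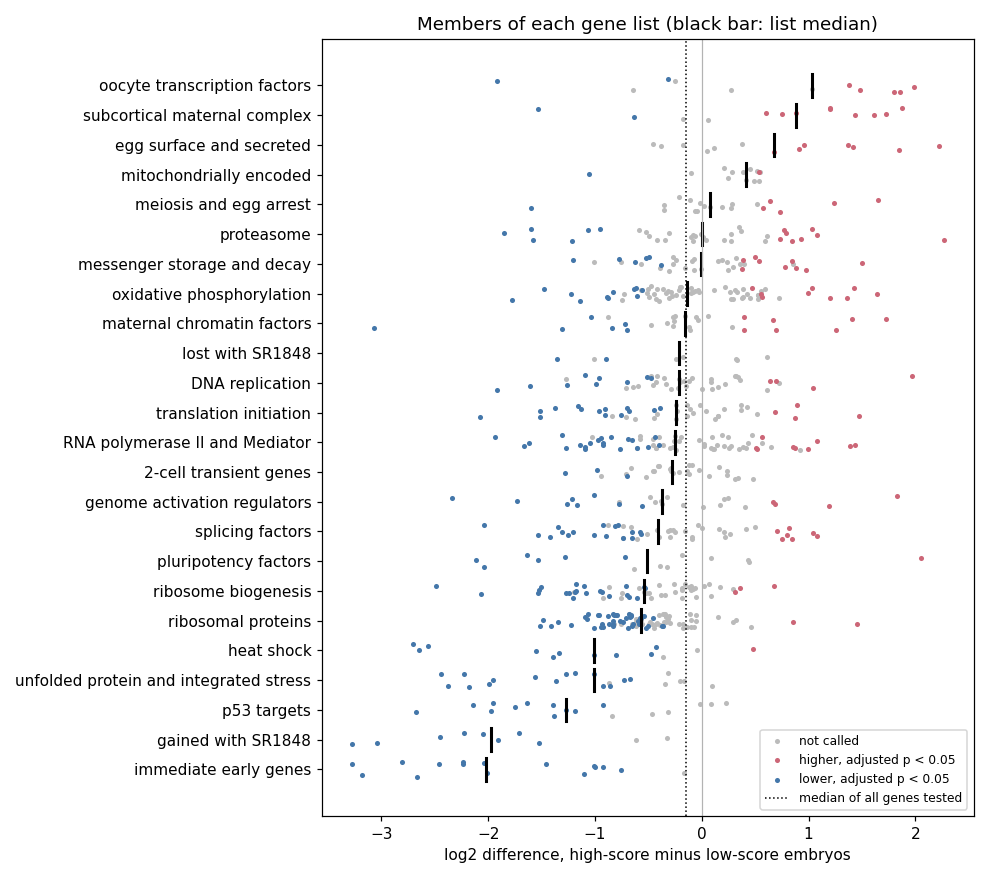
Log2 difference (high-score minus low-score embryos) of each tested member of the gene lists with at least 5 tested members; red and blue points passed an adjusted p of 0.05, black bars are list medians, and the dotted line is the median of all genes tested. Oocyte transcription factors, the subcortical maternal complex and egg surface genes lie at the top, the other maternal lists near the dotted line, and stress and immediate early genes at the bottom.

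Immediate early genes, the messages that rise within minutes when a cell is stimulated or stressed, were lower in the high-score embryos almost throughout: 15 of 16 tested were lower and 0 higher, with a median of -2.02. The list's mean level was lower in each of the 20 high-score embryos (2.16 to 4.75, log2 scale) than in any low-score embryo (4.98 to 6.64), and in DMSO it ran from 1.62 to 3.82. The AP-1 subunit Jun (chr4:95049034-95052222) ran from 2.17 to 56.9 CPM in the high-score embryos (median 15.9) and from 15.1 to 733 CPM in the low-score embryos (median 160). The groups overlapped for Jun, and all 20 low-score but 13 of 20 high-score embryos lay above every DMSO embryo (9.70-fold lower, adjusted p = 8.8e-09). Dusp1 (chr17:26505590-26562128), a phosphatase that turns off MAP kinases, ran from 8.47 to 229 CPM against 127 to 2100 CPM (medians 53 and 452, adjusted p = 1.8e-09). For Dusp1, 19 of 20 high-score embryos lay below every low-score embryo, and the DMSO median was 30.5 CPM. Fos was the member not called (-0.16). DESeq2 called 15 lower and limma-voom 14, and neither they nor an unadjusted p under 0.05 gave any higher member. Without the embryos numbered above 64, 11 of 17 were lower (median -1.47).

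The stress responses went the same way. Of 13 cytosolic chaperone and heat shock genes 10 were lower and 1, the mitochondrial chaperonin Hspd1 (0.48), was higher (median -1.01). The list's mean level had medians of 6.069 in the high-score, 7.241 in the low-score and 6.251 in the DMSO embryos (log2 scale). Hspa1a (chr17:34969190-34972156), the inducible Hsp70, ran from 0 to 307 CPM in the high-score embryos (median 73.7) and from 91.1 to 1427 CPM in the low-score embryos (median 469), with a DMSO median of 18.9 (6.27-fold lower, adjusted p = 7.5e-07); it shares sequence with its neighbour copy Hspa1b. Hspb1, a small heat shock protein, had medians of 81.2 and 487 CPM (6.51-fold lower, adjusted p = 8.4e-08), but its DMSO median of 235 lay between them. Dnajb1, the Hsp40 partner, was 1.35-fold lower (adjusted p = 0.012) and was not called under 4 of the other settings. Without the embryos numbered above 64, 6 of the 13 were lower.

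Of 21 genes of the unfolded protein and integrated stress responses 15 were lower and 0 higher (median -1.01). The list's mean level had medians of 5.058 in the high-score, 6.141 in the low-score and 6.12 in the DMSO embryos (log2 scale). The low-score embryos were thus near the DMSO level and the high-score embryos below it. Ppp1r15a, which restarts translation after stress, ran from 116 to 1064 CPM against 495 to 2663 CPM (medians 393 and 1211, 2.95-fold lower, adjusted p = 1.6e-08), and DMSO embryos had a median of 407. Hspa5, the main chaperone of the endoplasmic reticulum, ran from 169.5 to 2088 CPM against 1020 to 4474 CPM (medians 963 and 2249, 2.28-fold lower, adjusted p = 4.2e-06). Its DMSO median was 1341, above that of the high-score embryos. Genes of this response are switched on through the ER stress element, CCAAT and CCACG spaced by 9 bases. In RefSeq promoters (GRCm38.p6, 250 bases before the start, both strands) exact matches stood in 0.13% of all genes with a promoter in the table and in 0.238% of those tested. They stood in 5 of the 22 list genes with a promoter there, namely Calr, Dnajc3, Hsp90b1, Hspa5 and Pdia6. Of these 5, Calr, Dnajc3 and Hspa5 were lower and Hsp90b1 and Pdia6 were not called. In the same 22 promoters the cAMP response element stood in 1, the AP-1 site (TGACTCA) in 2 and the heat shock element in 0. All genes with a promoter there held these in 1.77%, 5.16% and 0.514%. In the 8 promoters found for the SR1848-gained list the AP-1 site stood in 1 and the other elements in 0. The site of Hspa5, whose fall is given above, lies at chr2:34772015-34772053 on the plus strand, 75 to 37 bases before the start, and is shown with its matching stretch in capitals.
Hspa5: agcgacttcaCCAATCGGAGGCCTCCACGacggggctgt

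Of 17 genes of p53 and its targets 11 were lower and 0 higher (median -1.27). The list's mean level had medians of 4.735 in the high-score, 5.803 in the low-score and 4.913 in the DMSO embryos (log2 scale). Gadd45b, a growth arrest gene, ran from 33.3 to 188 CPM against 118 to 606 CPM, with 19 of 20 high-score embryos below every low-score embryo (3.10-fold lower, adjusted p = 1.1e-08). Gadd45a had medians of 16.3 and 92.0 CPM (4.42-fold lower, adjusted p = 2.7e-07). Plk2, the most abundant, had medians of 366 and 833 CPM (2.27-fold lower, adjusted p = 2.7e-05) against 50.8 in DMSO. Trp53 itself was not called (0.09). The lower shares of the immediate early, heat shock, unfolded protein and p53 lists were 93.8%, 76.9%, 71.4% and 64.7%, against 21.1% of all genes tested. The stress lists share members: Sesn2 stands in the stress and p53 lists, and Btg2 in the immediate early and p53 lists.

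The genes that had risen most with SR1848 in these same embryos, a list picked from these data, were lower in the high-score embryos in 8 of 10 cases (median -1.98), and both others had negative values. That is 80%, against 21.1% of all genes tested, and the 8 include Jun, which also stands in the immediate early list. The list's median was -1.25 with the trend on GC content removed and -1.46 without the embryos numbered above 64, with 8 lower in both. The homeobox gene Dlx2 ran from 1.24 to 45.7 CPM against 28.6 to 567 CPM (8.24-fold lower, adjusted p = 2.7e-08), and all 20 low-score and 17 high-score embryos lay above every DMSO embryo, whose median was 1.65. The Notch target Hes1, the most abundant, had medians of 184 and 639 CPM (2.88-fold lower, adjusted p = 2.4e-05) against 5.53 in DMSO. Genes that had fallen most with SR1848 were picked from these data too and were low in both groups, which left little room for a difference. Their median levels were 2.507 in the high-score and 2.665 in the low-score embryos, against 7.894 in DMSO (log2 scale). Of 8 tested, Npl (2.56-fold lower, adjusted p = 0.046) and Sumo2 (1.86-fold lower, adjusted p = 0.026) were lower (25%, against 21.1% of all genes tested), and neither call held under all settings. For Sumo2 the medians of 4.77 and 13 CPM both lay far below the DMSO median of 482. Nr5a2, the receptor the compound is used against, ran from 1.30 to 20.1 CPM in the high-score and 0.451 to 32.8 CPM in the low-score embryos (medians 9.77 and 8.56). That difference did not pass the test (log2 -0.17 ± 0.36, SE, adjusted p = 0.72), and every embryo of both groups lay below every DMSO embryo (52.9 to 196 CPM).

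Few of the embryo's own early genes were called. Of 28 genes switched on briefly at the 2-cell stage 3 were lower (10.7%, against 21.1% of all genes tested) and 0 higher (0%, against 18%), with a median of -0.28. The lower genes were Usp17la (medians 42.5 and 105 CPM, adjusted p = 1e-04), Usp17le (adjusted p = 0.038) and Tdpoz1 (-0.98), the last 2 not called under several other settings. These are multicopy families with uncertain values, and the abundant Usp17lb was at 432 and 468 CPM with no call (adjusted p = 0.19). The mean level of the list had medians of 5.296 in the high-score, 5.397 in the low-score and 4.54 in the DMSO embryos (log2 scale). It lay above every DMSO embryo in 9 high-score and 10 low-score embryos, and below every DMSO embryo in 2 high-score embryos. Without these 2, 1793 of all genes were higher and 2398 lower, and 2 of the 28 were lower. Proposed regulators of genome activation had 4 of 24 higher (16.7%) and 8 lower (33.3%), with a median of -0.37, and 3 higher and 4 lower without the embryos numbered above 64. The lower members were Klf5 (-2.34), Smarca5 (-1.73), Cdk9 (-1.27), Gabpa (-1.22), Klf4 (-1.17), Obox3 (-1.01), Obox6 (-0.78) and Ccnt1 (-0.56). Smarca5 had medians of 62.1 and 185 CPM, against 248 in DMSO. Among the 4 higher members, which include the NF-Y subunit Nfya (0.68), Obox7 was 3.55-fold higher (medians 43.2 and 13 CPM, adjusted p = 1.4e-06), and Dppa2, which primes 2-cell genes, 1.19 log2 units higher (medians 89.6 and 36.6 CPM), although all 40 embryos lay below every DMSO embryo for it. Klf17, the most abundant, had medians of 1143 and 751 CPM (1.59-fold higher, adjusted p = 8.4e-05).

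Pluripotency factors had 1 of 14 higher (7.14%, against 18% of all genes tested) and 6 lower (42.9%, against 21.1%), with a median of -0.51. The higher gene was Tcl1 (chr12:105216750-105222793), an Akt coactivator that the egg also stores, at 1999 to 8877 CPM against 245 to 2666 CPM (medians 3966 and 1064, 4.16-fold, adjusted p = 3.1e-09). There 18 of 20 high-score embryos lay above every low-score embryo. Fgf4 had medians of 5.28 and 15 CPM (4.10-fold lower, adjusted p = 0.0034), both below the DMSO median of 84.5. Without the embryos numbered above 64, Tcl1 was still called and 0 of 15 were lower.

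Ribosomal protein and ribosome biogenesis genes were lower as a tendency rather than as a block. Of 86 ribosomal protein genes 43 were lower (50%, against 21.1% of all genes tested) and 2 higher (2.33%, against 18%), with a median of -0.57. Rpl13 had medians of 172 and 553 CPM (2.85-fold lower, adjusted p = 1.1e-09), whereas Rpl17 had 146 and 47.4 (2.74-fold higher, adjusted p = 3.5e-07). Of 55 ribosome biogenesis genes 22 were lower (40%) and 3 higher (5.45%), with a median of -0.54. Imp3, a small-subunit processing factor, had medians of 85.2 and 566 CPM (5.61-fold lower, adjusted p = 1.8e-07), and Rrp9 of 121 and 346 (2.88-fold lower, adjusted p = 4.9e-07). Without the embryos numbered above 64, 30 ribosomal protein and 11 biogenesis genes were lower.

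Among 40 initiation factors of translation, 14 were lower and 4 higher (median -0.24). The cap-binding protein Eif4e was among the higher, with 306 to 895.5 CPM against 99.9 to 335 CPM (2.78-fold, adjusted p = 2e-09), as was Eif2s2 (1.86-fold, adjusted p = 1.1e-06). For both genes the DMSO medians, 1279 and 514 CPM, were above both groups. Splicing factors had 17 of 48 lower and 7 higher (median -0.41), with Lsm2 at medians of 86.2 and 214 CPM (adjusted p = 6.7e-07), Srsf2 at 47.3 and 168 (adjusted p = 2.6e-06) and Sf3b1 at 144 and 239 (adjusted p = 5.4e-05). RNA polymerase II and Mediator genes had 21 of 69 lower and 9 higher (median -0.25), and the higher ones included Med27 (2.70-fold, adjusted p = 6.9e-09) and Taf12 (2.11-fold, adjusted p = 1.3e-07). Lower shares in the initiation, splicing and RNA polymerase II lists were 35%, 35.4% and 30.4%, against 21.1% of all genes tested. Their higher shares were 10%, 14.6% and 13%, against 18%.

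Proteasome genes were split, with 8 of 34 higher and 6 lower (median 0.00, of either sign between scalings). Psmd10 was 4.81-fold higher at a low level (medians 8.89 and 1.78 CPM, adjusted p = 1.3e-06) and Psmd3 1.94-fold lower (adjusted p = 0.00047). Nuclear genes of oxidative phosphorylation had 9 of 66 higher and 11 lower (median -0.14). Cox5b had medians of 44.9 and 131 CPM (2.79-fold lower, adjusted p = 2.4e-07), Cox6b1 of 13.4 and 4.84 (3.12-fold higher, adjusted p = 2.9e-05) and Atp5b of 614 and 902 (1.55-fold lower, adjusted p = 0.0018). Of the 13 mitochondrially encoded messages mt-Co3 was higher (0.54, lost under most other settings) and mt-Atp6 lower (2.08-fold, adjusted p = 0.011), and the most abundant, mt-Cytb, was not called (medians 13840 and 11140 CPM, adjusted p = 0.071). Replication genes had 4 of 43 higher and 9 lower (median -0.22): Orc5 of the origin recognition complex had medians of 334 and 74.1 CPM (3.92-fold higher, adjusted p = 3.1e-09), and the cyclins Ccne1 (164 and 699 CPM, adjusted p = 1.6e-07) and Ccna2 (565 and 1385 CPM, adjusted p = 3.6e-05) were lower. The lower shares of the proteasome, oxidative phosphorylation and replication lists, 17.6%, 16.7% and 20.9%, were not above the 21.1% of all genes tested. Their higher shares were 23.5%, 13.6% and 9.3%, against 18%.

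Messages of cumulus cells and sperm were scarce, and those of blood cells were at a higher level. The part of all of these in the results was not tested. Of 15 cumulus cell markers 1, Amhr2, could be tested and was not called (medians 9.21 and 17.3 CPM, adjusted p = 0.16), and 9 had a median of 0 in both groups. The summed level of the list was 6.35 to 49.1 CPM in the high-score and 12.3 to 59.9 CPM in the low-score embryos. Of 10 sperm markers 2 could be tested and neither was called, with sums of 3.20 to 31.2 and 9.39 to 49.8 CPM. Smcp was at 0 in all 40 embryos. Of 8 blood cell markers 3 could be tested, among them the globin genes Hba-a1 and Hba-a2, and 0 were called. Their list had sums of 83.8 to 382 and 65.5 to 558 CPM (medians 173 and 178.5), and the globin genes Hbb-bs and Hbb-bt were at 0 in all 40. In DMSO the blood sums were lower, at 6.62 to 161.5 CPM (median 40.6). The DMSO medians of the cumulus and sperm sums were 56.4 and 8.19 CPM.

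The called genes were also compared by features of their messages, chosen after the calls were known and given without a test. Coding genes whose transcripts have a single exon in GENCODE M21 numbered 281, of which 127 were lower (45.2%) and 11 higher (3.91%), with a median of -0.85. For genes with 2 exons 35.1% were lower (median -0.50), with 3 exons 29% (-0.42), with 4 to 8 exons 21.6% (-0.10) and with 9 or more 17.9% (-0.08). Jun, Hspa1a, Exosc6, Fzd9, Riox1, Sft2d3 and Imp3 have 1 exon. The calls of the stress lists were mostly of other genes: among members with several exons 11 of 12 immediate early, 8 of 11 heat shock, 15 of 21 unfolded protein and 11 of 17 p53 genes were lower. Of all tested genes with 2 or more exons 20.6% were lower (median -0.12). The medians of these list members were -1.28, -0.80, -1.01 and -1.27, so that the immediate early median of -2.02 was reduced by over 1.5 times without its 4 single-exon members. In the embryos of intermediate score the median slope on the score was -0.71 log2 units per score unit for single-exon genes and -0.06 for the others, and in the DMSO embryos 0.03 and 0.01.

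Single-exon coding genes with a median under 0.5 CPM over all 130 embryos, 937 in number, were also summed. The sum was 65.6 to 350 CPM in the high-score embryos (median 166), 203 to 744 CPM in the low-score embryos (median 366.5) and 94.0 to 239 CPM in the DMSO embryos (median 155). Thus 13 of 20 high-score embryos lay below every low-score embryo. The 8099 genes with several exons and an equally low median summed to medians of 2682, 2950 and 3283 CPM. Transcripts annotated as retaining an intron took a median of 3.90% of counts in the high-score, 4.52% in the low-score and 4.14% in the DMSO embryos. The part of these signals in the other results was not tested.

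**Figure D3:**
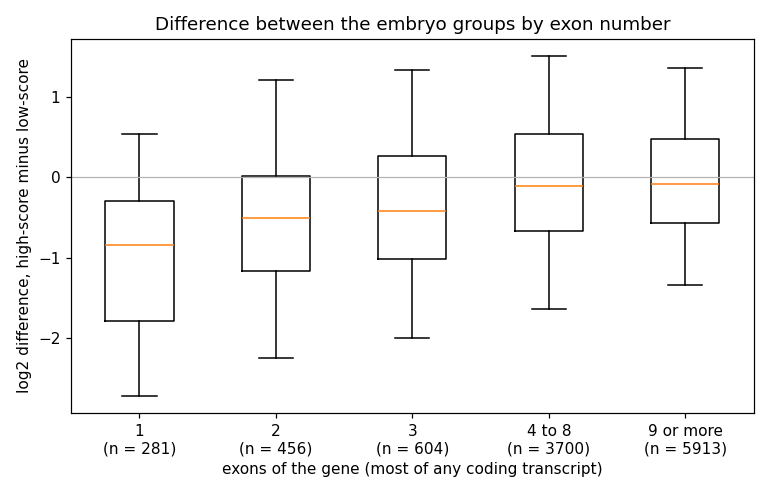
Log2 difference (high-score minus low-score embryos) of the tested coding genes by number of exons; boxes show the median and quartiles and whiskers the 5th and 95th percentiles. Genes with 1 exon (n = 281) lie lowest, with a median of -0.85.

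Base composition differed as well. The main transcript of a gene had a median GC content of 46.6% among the higher genes, 52.2% among the lower and 49.6% among all tested. With the trend on GC content removed from each embryo, 10923 genes could be tested, of which 1890 were higher and 2203 lower, and 1626 and 1829 of these were among the calls above. Median transcript lengths were 2475, 2681 and 2739 bases. The cytoplasmic polyadenylation element (TTTTAT or TTTTAAT, transcript strand) stood in the last 100 bases of 20.3% of the higher, 18.5% of the lower and 18.7% of the tested genes' transcripts, so these shares were close together. Examples are shown because they carry that element, in capitals together with the hexamer AATAAA where that falls in the stretch, for Wee2 and Tcl1, which were higher in the high-score embryos, for Dusp1, which was lower, and for the score gene Btg4, whose level served the selection. The stretches lie at chr9:51119809-51119838 (plus strand, Btg4), chr6:40466764-40466793 (plus, Wee2), chr12:105216785-105216814 (minus, Tcl1) and chr17:26505602-26505631 (minus, Dusp1) in GENCODE M21 on GRCm38.
Btg4: TTTTATgtctttttaaaagtttgatttaca
Wee2: cataTTTTAATccagatcattgtaAATAAA
Tcl1: TTTTATgtggttctattttagagatacggc
Dusp1: ctttTTTTATacaacagAATAAAttatgac

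Embryos outside the comparison were then examined with the score as a covariate. In the 40 SR1848 embryos of intermediate score, 0 of 13180 genes (0%) were related to the score at an adjusted p under 0.05 by edgeR, and 1029 at an unadjusted p under 0.05. The direction was mostly kept all the same: 83.2% of the genes higher in the high-score embryos had a positive slope there, as did 46.7% of all genes, and 82% of the lower genes a negative slope, as did 53.3% of all. Among the lists, 13 of 17 immediate early, 12 of 13 heat shock, 15 of 23 unfolded protein and 10 of 17 p53 genes had a negative slope. A positive slope was found for 12 of 13 subcortical complex genes and 9 of 12 oocyte transcription factors, and for 7 of 13 egg surface genes. Of the mitochondrially encoded genes, whose median was higher in the high-score embryos (0.42), 12 of 13 had a negative slope. These embryos span a narrower range of scores, 6.78 to 7.35.

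In the 50 DMSO embryos 479 of 15143 genes rose (3.16%) and 206 fell (1.36%) with the score. Of the genes higher in the high-score SR1848 embryos 331 rose there, which is 15.8% of that list and 69.1% of the DMSO list. Of the lower genes 49 fell, which is 2% and 23.8%. Maternal genes were among those that rose: Tcl1 rose by 1.71 log2 units per score unit (adjusted p = 6.8e-06), Wee2 by 1.41 (2.1e-05), Npm2 by 1.08 (0.00084) and Nlrp4f by 1.52 (0.00039). None of the tested members of the immediate early, heat shock, unfolded protein, p53 and SR1848-gained lists was called with the score in DMSO by edgeR. Calls were few among all genes too, at the 3.16% and 1.36% given above. Of 73 such list genes 5 had an unadjusted p under 0.05, as did 2727 of all 15143 genes. Jun was listed at a DMSO median of 0.0821 CPM and was thus hardly measured there, whereas Hspa5 (slope -0.49, adjusted p = 0.31) and Ppp1r15a (0.35, adjusted p = 0.35) were abundant.

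**Figure D4:**
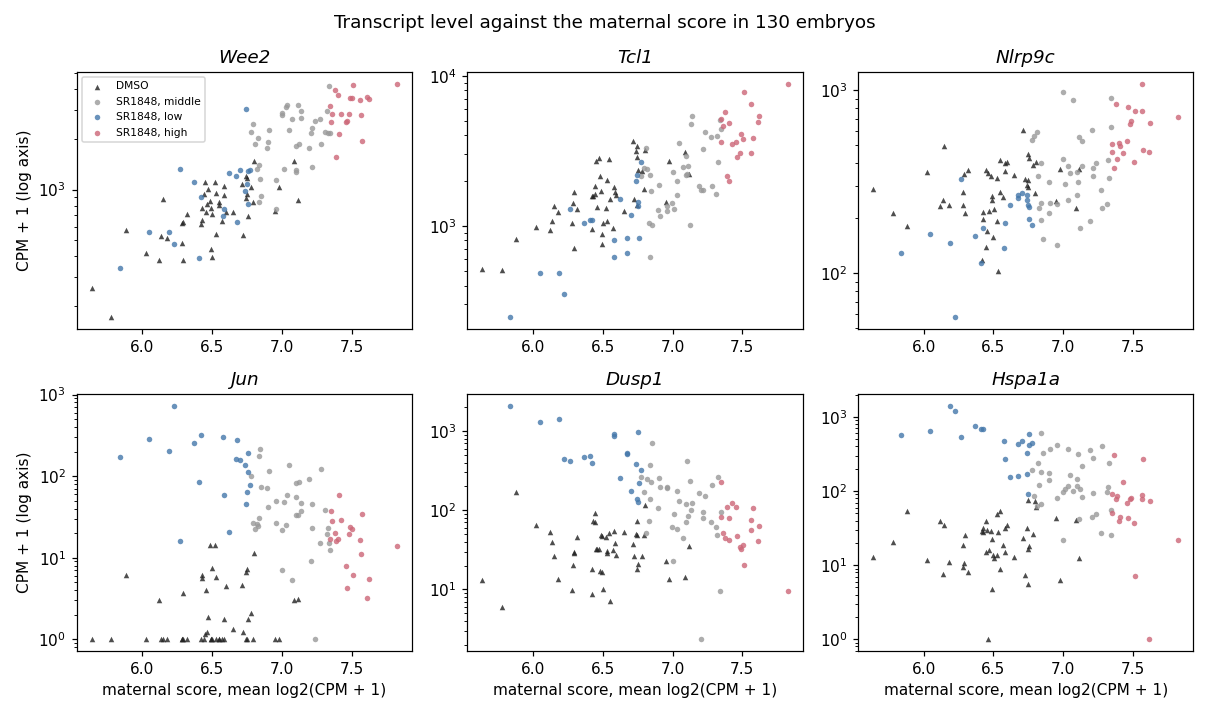
Level (CPM + 1, log axis) of 6 transcripts against the maternal score in 130 embryos, with SR1848 embryos as circles coloured by group and DMSO embryos as triangles. Wee2, Tcl1 and Nlrp9c increase along the score in the SR1848 embryos, and Jun, Dusp1 and Hspa1a decrease.

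The slopes themselves were compared between treatments in a model over all 130 embryos, added after the other results were seen. Of 13154 genes, 948 differed in slope at an adjusted p under 0.05 (edgeR), 424 with a more positive and 524 with a more negative slope under SR1848. Among the lists, 8 of 23 unfolded protein genes, 4 of 17 immediate early genes, 3 of 13 heat shock genes, 3 of 16 p53 genes and 5 of 10 SR1848-gained genes had a more negative slope under SR1848. 1 heat shock gene had a more positive slope. The SR1848-gained list was picked for its rise over DMSO in these data, and its DMSO median level was 1.588 (log2 scale). Its members Jun and Dlx2 had DMSO medians of 0.0821 and 1.65 CPM, so their DMSO slopes rest on few reads. Of 36 proteasome genes 8 had a more positive slope and 1 a more negative one. Of the maternal lists, 1 of 13 egg surface genes, 0 of 11 oocyte transcription factors and 1 of 13 subcortical complex genes, Nlrp9c, had a more positive one, while Zbed3 of the last list had a more negative one. Message storage and meiosis had 1 of 38 and 1 of 20 more positive, and chromatin factors 2 of 27 more negative. For Wee2 and Tcl1 the difference in slope did not pass the test (adjusted p = 0.56 and 0.36). Eif4e rose with the score under SR1848 (1.30 log2 units per score unit) and not in DMSO (-0.22), and the difference passed (adjusted p = 2.1e-05).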

How the data were processed

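The authors deposited kallisto estimated counts per transcript for each embryo. The submitters' processing notes list mm10 and hg19 as builds. As tools the same notes list kallisto 0.46.1, DESeq2 1.32.0, bcl2fastq, R 3.5.1 and Trim Galore 0.6.2. The authors' deposited annotation, with its gene coordinates, served only to pair transcripts with gene symbols. Of 119358 entries 2164 had no symbol (0.755% to 1.17% of an embryo's counts) and were left out. Estimated counts were summed per symbol and rounded, giving 2701000 to 8361000 per embryo. Reads carry no molecular identifiers.

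Groups were formed from the score as given above, and the score genes stayed in the library sizes but out of the tests. Genes passing filterByExpr were tested with edgeR 4.0.16 in R 4.3.3 (TMM factors, estimateDisp, robust glmQLFit, glmQLFTest, two-sided, Benjamini-Hochberg). The biological coefficient of variation was 0.723. Levels are CPM over counts with a symbol. Library properties were compared with permutation tests of 100000 resamples (SciPy). The script was tested on simulated data. Alternatives used DESeq2 1.42.0, limma 3.58.1, other scalings, filters, covariates, scores and embryos. Coordinates, exon numbers and transcripts are of GENCODE M21 (GRCm38), matched by gene ID for 94% of tested genes. 4 promoter motifs were searched in the higher, lower and tested genes and in the immediate early, heat shock, unfolded protein and SR1848-gained lists. Of these sets 76.4%, 76%, 75.7%, 77.3%, 69.2%, 95.7% and 80% of genes had a promoter in the RefSeq table. The search was thus incomplete, most of all for the first 5, and only the last 2 are described above. Among higher, lower and tested genes with a promoter, the cAMP response element stood in 1.87%, 4.77% and 3.06%. The AP-1 site stood in 4.74%, 2.14% and 3.63%, the heat shock element in 0.187%, 0.429% and 0.476%, and the ER stress element in 0.25%, 0.322% and 0.238%. These differences were not tested.

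The embryos, gene lists and tests were chosen with earlier results of these data known. Genes are named by rule: the score genes, Nr5a2, the 10 largest rises and falls among called genes of at least 20 CPM with a regular symbol, and from each list the 2 members of smallest p and the most abundant. Some genes of this rule are not described above. Of these, H3f3b (-0.26), Gtpbp4 (-0.08), Eif5a (-0.13) and Polr2c (-0.21), each the most abundant of its list, were not called. Cnot7 (0.38) and Psmd9 (1.04) were higher. The sperm and blood cell markers Oaz3, Hba-a1 and Hba-a2 were not called. Other members, named to spell out small counts, and the genes of groups without overlap were picked after their values were seen. The comparison of slopes, message features and 4 of the alternatives were added after seeing the data.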

Additional observations from a re-analysis of the deposited data

Results flagged for a closer look

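Genes are given here because the slope on the maternal score differed between the SR1848 and the DMSO embryos (edgeR, treatment by score, 130 embryos, adjusted p under 0.05 over 13154 genes). Values are the SR1848 slope minus the DMSO slope in log2 units per score unit. Among stress, immediate early and SR1848-gained genes the difference was -4.23 for Jun, -2.68 for Dusp1, -3.0 for Hspa1a, -2.95 for Hspb1, -2.89 for Hspa2, -1.78 for Ppp1r15a, -1.80 for Gadd45a, -4.61 for Dlx2 and -3.30 for Hes1. The mitochondrial chaperonin Hspd1 had the opposite sign, 0.86.

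Among other genes with a lower slope under SR1848 the difference was -3.92 for Abtb2, -3.34 for Fzd9, -3.32 for Sft2d3, -2.89 for Hspa2, -2.80 for Zfp622, -2.25 for Smarca5-ps, -2.87 for Kdm5b, -1.64 for Zbed3 and -1.63 for Ccne1. Genes of ribosomes, splicing and proteasome had -2.09 (Imp3), -1.27 (Rrp9), -1.22 (Rpl13), -1.85 (Srsf2) and -1.42 (Psmd3).

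A higher slope under SR1848 was found for the maternal genes Oosp2 (1.56) and Nlrp9c (1.07) and for Apoo (2.61), Psenen (1.68), Lef1 (1.61), Anapc10 (1.96), Bccip (1.94), Vdac2 (1.08), Orc5 (1.15) and Dppa2 (1.26). The same held for Eif4e (1.51), Eif2s2 (1.08), Rpl17 (1.09), Psmd10 (2.02), Cox6b1 (1.81), Med27 (1.07) and Taf12 (0.95).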

How the results depend on the processing

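No paired analysis was possible because each SR1848 number occurs once and the groups compared are embryos of 1 treatment. Under 18 other settings of scaling, filter, tool, covariate, score and embryos the counts of higher and lower genes ran from 1770 to 3087 and from 1999 to 3465, each within 1.5 times the counts reported. Among these settings, leaving out embryos of low depth or few detected genes removed none, so that all 40 stayed and nothing could change. The values of that setting are included in the counts of single-gene values below. The all-gene median moved from -0.15 to -0.04 with upper-quartile factors and with limma-voom, a shift of just over 0.1. Only leaving out the embryos numbered above 64, added after seeing the data, moved the counts further, to 1241 higher and 1142 lower with fewer embryos (17 against 10). Of 20 low-score embryos 10 carried such a number and of 20 high-score embryos 3; what the numbers stand for is not stated in the labels. Of 2110 values of 96 single genes 2007 kept their direction and side of the threshold, 90 were no longer called, 9 became called and 4 changed sign, all of genes not called: Nr5a2 with limma-voom (0.29) and without embryos above 64 (0.54), and Fos with the log2 total count as covariate (0.19) and between the 10 highest and 10 lowest embryos (0.56). The lists' medians kept their sign except for message storage and decay, proteasome, oxidative phosphorylation (0.02 with the GC trend removed), blood cells (0.25 between the 10 highest and 10 lowest) and genes lost with SR1848 (0.20 with limma-voom, 0.01 with CPM over all entries and 0.38 without embryos above 64). Calls lost without the embryos above 64 include those of Khdc3, Fgf4, Ccna2, Riox1, Zfp428, Psmd3 and mt-Atp6. Genes at a few CPM rest on few reads in an embryo.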
